A study of Mus musculus with 12 samples.

Results

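The nuclear-encoded subunits of the mitochondrial respiratory chain were taken as the genes whose symbols begin with Nduf followed by a, b, c, s or v and a digit, the 4 succinate dehydrogenase genes Sdha to Sdhd, and the genes whose symbols begin with Uqcr, with Cox and a digit of the structural subunit series, or with Atp5. Symbols ending in -ps were left out. The rule uses no measured value, though it was chosen with earlier results of these data known. The rule found 87 of 22584 genes: 41 of complex I, 4 of complex II, 8 of complex III, 17 of complex IV and 17 of complex V. All 87 were among the 15004 genes with enough reads to be tested. Complexes were assigned by name, so Ndufa4, which is known as a subunit of complex IV, stands under complex I, and Cox7a2l, which is known for joining complexes into supercomplexes, stands under complex IV. Ndufab1 and Cyc1 are subunits that the naming rule does not reach, and they are described with the genes outside it.

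The respiratory chain passes electrons taken from NADH and succinate through complexes I to IV to oxygen and builds a proton gradient across the inner mitochondrial membrane, which complex V, the ATP synthase, uses to make ATP. Complexes I, III, IV and V are mosaics of subunits encoded in the nucleus and a small set of catalytic subunits encoded in the mitochondrial genome, whereas complex II is wholly nuclear. Heart muscle depends on this pathway for most of its ATP, and its cells are densely packed with mitochondria. Some subunits of complex IV exist as a form made mainly in heart and skeletal muscle and a form made in most other tissues.

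Polyadenylated RNA was sequenced from cardiomyocytes isolated from hearts of C57BL6 mice with the genotype label WT, in 12 libraries that form 4 groups of 3. CKD JV001 libraries came from mice given AngII, a high salt diet and uninephrectomy (removal of 1 kidney) for 12 weeks, with an injection of JV001. CKD saline libraries came from the same model with an injection of saline, and their label gives no duration. Sham JV001 and sham saline libraries came from mice 12 weeks under a sham operation, injected with JV001 or with saline. The series title speaks of telomere recapping by gene therapy in type 4 cardio-renal syndrome. JV001 is named only by its code, and no vector, promoter, dose, age or sex is given. AngII, salt and kidney removal were always combined, so their parts cannot be told apart. No label states whether the libraries of a group are different animals, so each p-value reflects the spread among libraries only, and that spread may be technical.

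The sequencing depth lay between 25.2 and 37 counts per library, in units of 1e6. All 12 ventricular cardiomyocyte markers were present in every library, with a mean log2 CPM (counts per 1e6 after TMM scaling) of 10.82 to 12.84. Library 3 of each CKD group stood apart from its own group. In CKD JV001 the summed ventricular markers reached 65886, 66443 and 29915 CPM in libraries 1, 2 and 3, against 106977, 107593 and 60174 CPM in CKD saline, 100009, 95557 and 103683 CPM in sham JV001 and 88424, 119625 and 116683 CPM in sham saline. The 10 fibroblast markers ran the other way, with sums of 2844, 2873 and 3724 CPM in CKD JV001, 620, 643 and 2433 CPM in CKD saline, 857, 1277 and 606 CPM in sham JV001 and 1156, 785 and 304 CPM in sham saline. The 7 neutrophil markers that were tested summed to 315 CPM in CKD JV001 library 3 and 81.0 CPM in CKD saline library 3. They summed to 0.907 to 16.4 CPM in the other 10 libraries, where Mmp8 was at 0 in 5. By chi-square per gene, libraries 1 and 2 of CKD saline were the closest of the 12 same-group pairs, with 8.77 against 25.3 to 392 for the other pairs, and all 12 pairs differed beyond sampling noise. Library 1 of sham saline also stood apart from its group: its chi-square per gene was 284 and 250.2 against libraries 2 and 3, which differed by 30.9 from each other, mitochondrial transcripts took 34.7% of its counts, against 18.8 and 19.5%, and the 7 atrial markers summed to 4205 CPM in it, against 423 and 1439 CPM. The members' counts and medians in the comparisons of the CKD groups are given with all libraries and without both libraries 3, and other values use all 12 libraries unless stated.

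The subunits were among the most abundant nuclear transcripts of these cells. They took 3.56, 3.70 and 1.73% of all counts in CKD JV001, 4.73, 4.61 and 2.91% in CKD saline, 4.12, 4.47 and 4.70% in sham JV001 and 3.83, 5.18 and 5.01% in sham saline. By mean FPKM (a level per gene length and library size), 33 of the 87 were among the 100 highest genes and 78 among the 500 highest, and 80 had a mean count of 1000 or more. Atp5b, the catalytic beta subunit of the ATP synthase, was the highest member at 2473 FPKM and made up 20.3% of the summed FPKM of complex V. Cox4i1, the common form of a regulatory complex IV subunit, followed at 1805 FPKM, ahead of Atp5a1, the alpha subunit of the ATP synthase, at 1717 FPKM, and Cox6a2, the heart and muscle form of another complex IV subunit, at 1598 FPKM.

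Within complexes the levels spread unevenly. Among members with a mean count of 1000 or more, the median level was 831 FPKM in complex IV, 515 FPKM in complex V, 514 FPKM in complex III, 384 FPKM in complex II and 255 FPKM in complex I. Complex I was led by Ndufa4 with 1071 FPKM and Ndufb10, a membrane-arm subunit, with 769 FPKM. In complex II the order was Sdhb, the iron-sulfur subunit, at 646 FPKM, Sdha, the flavoprotein that oxidises succinate, at 476 FPKM, Sdhc, a membrane anchor, at 293 FPKM and Sdhd, the other anchor, at 268 FPKM, and this order held in all 12 libraries. Complex III was led by Uqcrh, the hinge subunit, at 796 FPKM and Uqcrc1, a core subunit, at 655 FPKM. Of 82 pairs of neighbours in the order of levels within a complex, 35 kept the same order in all 12 libraries; Atp5g1 and Atp5g3, which both encode the c subunit of the rotor, stood at 702 and 699.9 FPKM and Atp5g1 was the higher in 7 libraries. At the low end, 4 members had a mean count under 100, and Cox7b2 and Ndufb4c averaged 0.228 and 0.677 FPKM.

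In the comparison of CKD JV001 with CKD saline, which bears on the effect of JV001 in the CKD model, all 5 complexes were lower in CKD JV001 by a similar amount, but the differences did not pass the test with all 12 libraries. The 87 members summed to 34824, 33736 and 16054 CPM in CKD JV001 libraries 1 to 3 and to 51018, 51048 and 29172 CPM in CKD saline libraries 1 to 3. Library 3 was the lowest of each group, and CKD JV001 libraries 1 and 2 lay above CKD saline library 3, so the groups overlapped. The median log2 fold change was -0.57 over the members and 0.02 over all genes tested, 84 of the 87 members were negative, and 65 lay below -0.5. In bulk RNA, fewer cardiomyocytes in a sample and less of these transcripts per cardiomyocyte cannot be told apart. The 12 ventricular markers had a median log2 fold change of -0.74 in the same comparison and the 10 fibroblast markers 1.38, and their part in the members' values was not tested.

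By edgeR's quasi-likelihood test with Benjamini-Hochberg adjustment, 0 of the 87 members and 0% of all genes passed in CKD JV001 against CKD saline, and DESeq2 also called 0 members. At an unadjusted p below 0.05, 20 members (23.0%) were lower and 0 higher, against 8.75% of all genes lower and 1394 of 15004 genes higher. The groups did not overlap for 0 members, against 6.04% of all genes lower without overlap. Without both CKD libraries 3, 70 members fell and 0 rose at an adjusted p below 0.05, against 10.1% of all genes that fell: 33 of 41 in complex I, 4 of 4 in complex II, 8 of 8 in complex III, 10 of 17 in complex IV and 15 of 17 in complex V. That fit sets 2 libraries against 2, including the closest pair by chi-square per gene. It leaves out libraries that stood apart in these same data, a choice made with earlier results known. In it the ventricular markers had a median of -0.68 and the fibroblast markers 2.11, and their part was not tested. The median over members was -0.53 in that fit. The median was -0.28 without CKD JV001 library 3 alone and -0.81 without CKD saline library 3 alone, where 27 members fell, against 8.07% of all genes, and 2 rose, against 13.2% of all genes.

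The labels number the libraries 1 to 3 in every group without saying that a number marks an animal or a day. In the 2 CKD groups the same-number libraries deviated together from their group means, with correlations of 0.29 to 0.49 in the 3 pairs, and in each pair the members' summed CPM was lower in CKD JV001. Libraries with the numbers 1 and 2 correlated about as well crossed, at up to 0.31, and the libraries 3 had the highest correlation between these 2 groups. CKD saline library 3 correlated as well with sham saline library 1, at 0.50. Only 3 of all 12 libraries correlated best with their own number, so the number is not shown to mark a pair. When these 6 libraries were fitted alone with the number as a block, an alternative chosen after the data were seen, 85 members were tested, and 74 fell and 2 rose in CKD JV001 by edgeR at an adjusted p below 0.05, against 9.56% of all genes that fell and 10.4% that rose. Those that fell were 35 of 40 in complex I, 4 of 4 in complex II, 8 of 8 in complex III, 11 of 16 in complex IV and 16 of 17 in complex V, and those that rose were Cox4i2 and Ndufa4l2. Ndufa9, Ndufs1, the 4 Sdh genes, Uqcrc1, Uqcrc2, Uqcrh, Atp5a1, Atp5b, Cox4i1 and Cox7c, whose values follow, were among those that fell (edgeR adjusted p = 0.0113 to 0.0191), and Cox6a1 was not (adjusted p = 0.971). The median was -0.60 in this fit, against -0.57 in the fit of 12 libraries, so the counts of calls differed far more than the size. In the fit of 6 libraries the ventricular markers had a median of -0.80 and the fibroblast markers 1.68, and their part was not tested. With the block over all 12 libraries 0 members passed.

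**Figure D1:**
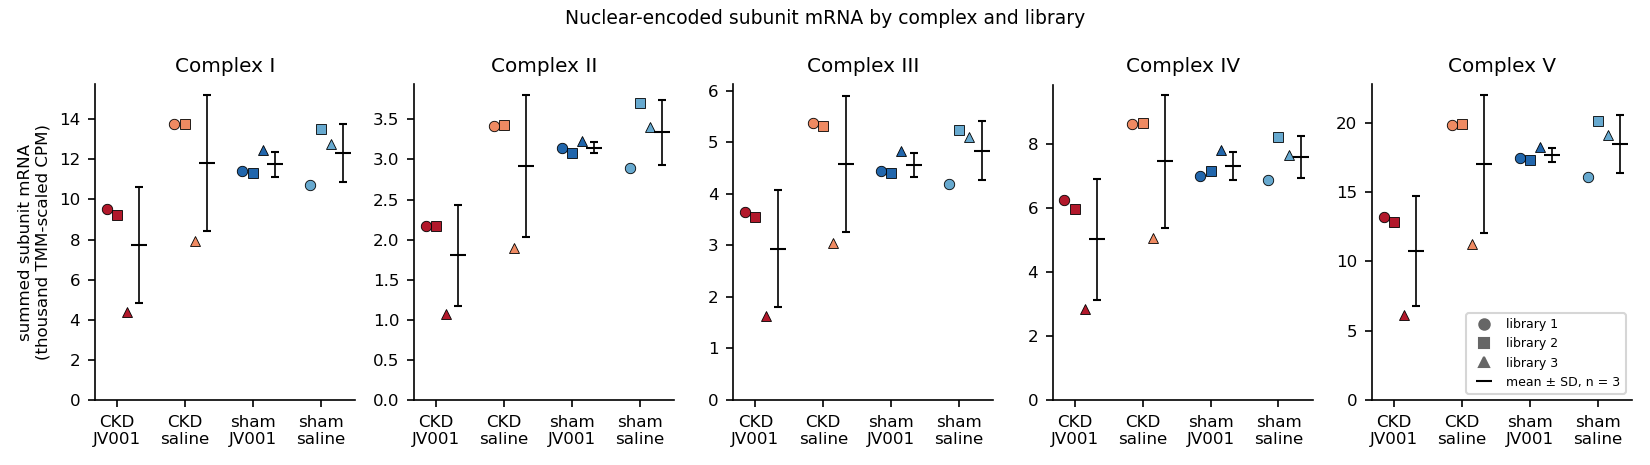
Summed CPM of the members of each complex in every library (points, with libraries 1, 2 and 3 as circles, squares and triangles; axis in units of 1000 CPM) with the group mean ± SD (lines, n = 3), for CKD JV001, CKD saline, sham JV001 and sham saline from left to right. In each complex CKD JV001 library 3 is the lowest point of all 12, and the sums of CKD JV001 libraries 1 and 2 lie below those of every sham JV001 library.

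Complex I, which takes electrons from NADH, summed to 9539, 9235 and 4380 CPM in CKD JV001, against 13779, 13739 and 7913 CPM in CKD saline. Libraries 1 and 2 of CKD JV001 lay between the CKD saline libraries, and 9 of 41 members were lower at an unadjusted p below 0.05. Ndufa9, an accessory subunit that binds NADPH, had the lowest fold change of all members, with 423, 416 and 206 CPM in CKD JV001 and 719, 687 and 391 CPM in CKD saline (log2 fold change -0.78, SE 0.30, edgeR adjusted p = 0.276). Ndufs1, the largest subunit of the complex, which carries iron-sulfur clusters, had 450.2, 458 and 242 CPM in CKD JV001, against 786, 777 and 403 CPM in CKD saline. Its log2 fold change was -0.77 (SE 0.29, edgeR adjusted p = 0.276) with all libraries and -0.81 (adjusted p = 0.0193) without both libraries 3.

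Complex II, which links the citric acid cycle to the chain, had the lowest median of the 5 complexes at -0.65. Sdha had 952, 959 and 537 CPM in CKD JV001, against 1628, 1635 and 897 CPM in CKD saline. CKD JV001 libraries 1 and 2 lay just above CKD saline library 3 and far below the other CKD saline libraries. Its log2 fold change was -0.76 (SE 0.28, edgeR adjusted p = 0.276), and -0.80 (SE 0.13, adjusted p = 0.0189) without both libraries 3. Sdhb, Sdhc and Sdhd had log2 fold changes of -0.62, -0.67 and -0.61, with edgeR adjusted p-values of 0.276 to 0.292.

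Complex III, which hands electrons to cytochrome c, had a median of -0.60 with 4 of 8 members lower at an unadjusted p below 0.05. Uqcrc1 had 905, 888 and 386 CPM in CKD JV001, against 1422, 1410.2 and 797 CPM in CKD saline (log2 fold change -0.74, SE 0.32, edgeR adjusted p = 0.276). The other core subunit, Uqcrc2, had a log2 fold change of -0.69 (SE 0.30) and Uqcrh one of -0.52 (SE 0.29). None of the 8 was positive.

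Complex V had a median of -0.57, and all 17 members were negative. Atp5b had 3677, 3591 and 1758 CPM in CKD JV001, against 5819.7, 5839 and 3271 CPM in CKD saline (log2 fold change -0.73, SE 0.31, edgeR adjusted p = 0.276). Atp5a1 followed it closely, with 3246, 3238 and 1572 CPM in CKD JV001 and 5252, 5283 and 2905 CPM in CKD saline (log2 fold change -0.74, SE 0.32). The alpha and beta subunits together form the catalytic head, and their FPKM levels kept the same order in each of the 12 libraries.

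Complex IV, which reduces oxygen, was the least even. Its median was -0.56, but only 1 of 17 members was lower at an unadjusted p below 0.05, and it held 2 of the 3 positive members. Cox4i1 had 1275, 1218 and 578 CPM in CKD JV001, against 1782, 1785 and 1106 CPM in CKD saline (log2 fold change -0.61, SE 0.29, edgeR adjusted p = 0.282). Cox7c, a small membrane subunit, had the smallest p of the complex (log2 fold change -0.62, SE 0.27, edgeR adjusted p = 0.277). Cox6a1, the form found outside muscle, stood at 46.5, 47.3 and 45.5 CPM in CKD JV001 and at 49.4, 48.5 and 42.2 CPM in CKD saline (log2 fold change -0.01, SE 0.14, edgeR adjusted p = 0.970). Its 6 values lay within a narrow band, including the 2 libraries in which the other subunits were lowest.

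**Figure D2:**
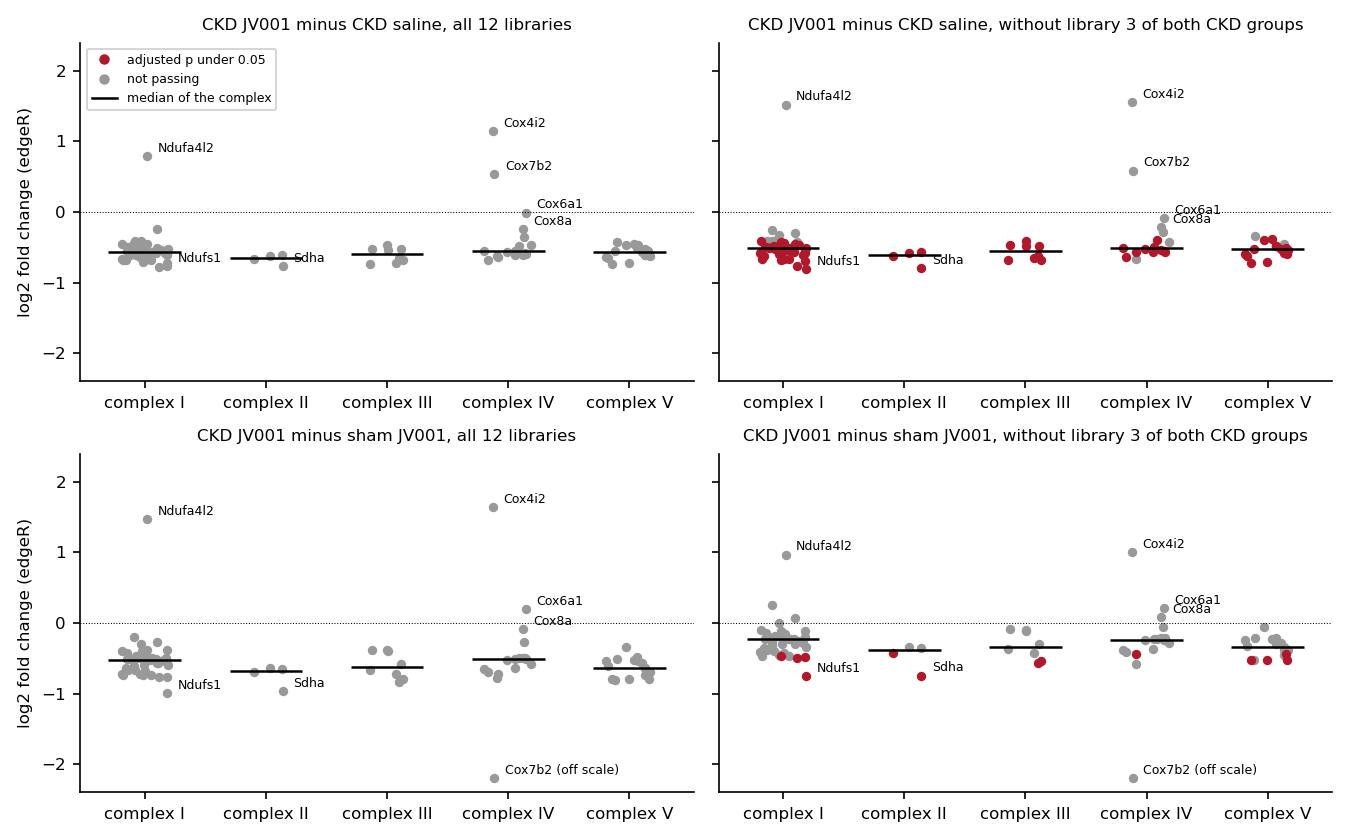
Log2 fold changes of the 87 members by complex (1 point per member) for CKD JV001 against CKD saline and CKD JV001 against sham JV001, with all 12 libraries on the left and without both CKD libraries 3 on the right; red points passed an adjusted p below 0.05, black lines are medians of a complex, and Cox7b2 is off scale in CKD JV001 against sham JV001. With all libraries 84 of 87 points lie below 0 in each comparison and none is red, while 70 and 13 are red on the right.

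Setting CKD JV001 against sham JV001 asks what the CKD model did under JV001, and it shares its CKD JV001 libraries with the comparison above. The members summed to 34824, 33736 and 16054 CPM in CKD JV001, against 43450, 43234 and 46546 CPM in sham JV001, with no overlap. The median log2 fold change of the members was -0.57 against 0.02 for all genes, and 84 of 87 were negative. By edgeR 0 members passed, against 0.02% of all genes. At an unadjusted p below 0.05, 27 members were lower, against 12.7% of all genes, and 1 was higher, against 2214 of 15004 genes. For 71 members every CKD JV001 library lay below every sham JV001 library, against 20.1% of all genes, and for 3 members every one lay above, against 22.9% of all genes. By complex the medians were -0.52 for I, -0.67 for II, -0.62 for III, -0.52 for IV and -0.64 for V.

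Sdha and Ndufs1 had the smallest p-values. Sdha reached 952, 959 and 537 CPM in CKD JV001, against 1669.6, 1561 and 1553 CPM in sham JV001 (log2 fold change -0.97, SE 0.28, edgeR adjusted p = 0.101). Ndufs1 reached 450.2, 458 and 242 CPM in CKD JV001, against 782, 716 and 786 CPM in sham JV001 (log2 fold change -0.99, SE 0.29, edgeR adjusted p = 0.105). Neither pair of groups overlapped, and both genes fell by the DESeq2 Wald test (adjusted p = 0.0153 for Sdha and 0.0200 for Ndufs1), the only 2 members it called, against 5.1% of all genes that fell by it. In the other complexes the smallest edgeR p belonged to Uqcrb, a complex III subunit that binds ubiquinone (log2 fold change -0.84, SE 0.29), to Cox7b (-0.72, SE 0.29) and to Atp5md, a small ATP synthase subunit (-0.80, SE 0.31), with edgeR adjusted p-values of 0.122 to 0.154. Without both CKD libraries 3, 13 members fell, against 5.6% of all genes. They were Ndufa9, Ndufa10, Ndufs1 and Ndufv1 of complex I, Sdha and Sdhc of complex II, Uqcrb and Uqcrc2 of complex III, Cox7b of complex IV and Atp5a1, Atp5b, Atp5c1 and Atp5j of complex V. The median over members was then -0.28, so the size of the difference moved by more than 1.5 times with those libraries. With all libraries the ventricular markers had a median of -0.73, the fibroblast markers 1.65 and the macrophage markers 2.09 in the same comparison. Without both CKD libraries 3 the ventricular markers had a median of -0.42 and the fibroblast markers 1.47. The part of these cell types was not tested.

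The 3 members that stood higher in CKD JV001 than in every sham JV001 library were Cox4i2, Ndufa4l2 and Cox6a1. Cox4i2, the form of the Cox4 subunit known for its induction by low oxygen and its high level in lung, had 7.22, 8.12 and 20.3 CPM in CKD JV001, against 4.33, 2.69 and 4.36 CPM in sham JV001 (log2 fold change 1.65, SE 0.73, edgeR adjusted p = 0.175). Ndufa4l2, a relative of Ndufa4 known as a target of the hypoxia-inducible factor, had 15.9, 15.3 and 34.8 CPM in CKD JV001, against 7.98, 8.75 and 7.06 CPM in sham JV001 (log2 fold change 1.47, SE 0.68, edgeR adjusted p = 0.184). Both were highest in library 3 of the CKD groups, with 11.1 CPM of Cox4i2 and 27.4 CPM of Ndufa4l2 in CKD saline library 3, against 2.28 to 2.85 and 5.11 to 5.55 CPM in the other CKD saline libraries. Pericyte and smooth muscle markers also peaked there, with sums of 1927 CPM in CKD JV001 library 3 and 1018 CPM in CKD saline library 3, against 235 to 760 CPM in the other 10 libraries, and their part in these 2 genes was not tested. Without both CKD libraries 3, the log2 fold changes were 1.01 for Cox4i2 and 0.97 for Ndufa4l2, and without CKD JV001 library 3 alone they were 1.02 and 0.98, so both were more than 1.5 times smaller. Cox6a1 had 46.5, 47.3 and 45.5 CPM in CKD JV001, against 36.8, 41.6 and 42.8 CPM in sham JV001 (log2 fold change 0.20, SE 0.14, edgeR adjusted p = 0.337).

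Under saline, the CKD model and the sham operation differed in these genes by less than the spread between libraries. The members summed to 51018, 51048 and 29172 CPM in CKD saline, against 40790, 50776 and 48027 CPM in sham saline, with a median log2 fold change of -0.05 (0.01 for all genes) and 62 of 87 members negative. By edgeR 0 members and 0% of all genes passed, by DESeq2 0 members, and 1 member was lower at an unadjusted p below 0.05, against 2.81% of all genes. For 0 members did every CKD saline library lie below every sham saline library, against 6.44% of all genes. The median was 0.18 without both CKD libraries 3, with 82 of 87 members positive, so the direction turned with CKD saline library 3, and it was -0.14 without sham saline library 1, with 79 negative. The member with the unadjusted p below 0.05 was Cox7b2, a relative of the complex IV subunit gene Cox7b, with 1, 0 and 0 counts in CKD saline and 0, 15 and 12 counts in sham saline (edgeR adjusted p = 0.941). At such counts the fitted fold change depends on the prior count, and 1 sham library was also at 0, where a count of 0 allows up to 3 counts. Ndufa4l2 was the highest, with 5.55, 5.11 and 27.4 CPM in CKD saline and 11.2, 4.19 and 2.77 CPM in sham saline (log2 fold change 1.07, SE 0.68, edgeR adjusted p = 0.941), a value that rests on CKD saline library 3.

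Between sham JV001 and sham saline the members differed by less than the spread between libraries. Their sums were 43450, 43234 and 46546 CPM in sham JV001, against 40790, 50776 and 48027 CPM in sham saline, a spread that overlaps. The median was -0.05 (-0.01 for all genes), with 66 of 87 negative (-0.14 and 77 without sham saline library 1). By edgeR or DESeq2 0 members were called, and 0% of all genes by edgeR. At an unadjusted p below 0.05 there were 0 members, against 426 of 15004 genes. Without overlap on the lower side there were 0 members, against 6.71% of all genes. Complex medians lay between -0.08 and -0.02, and the smallest p-values in each complex belonged to Ndufb1 (log2 fold change 0.27, SE 0.31), Sdhb (-0.11), Uqcrc1 (-0.15), Cox7a1 (-0.15) and Atp5d (-0.13), all with an edgeR adjusted p of 0.9997. The extremes were Ndufa4l2 at 0.39 and Ndufb4c, a low-count gene, at -0.54.

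The difference between the JV001 effects in CKD and in sham mice was tested as an interaction. Its median was -0.53 over members and -0.0015 over all genes, and 82 of 87 members were negative. By edgeR 0 members and 0% of all genes passed, and DESeq2 called 0 members. At an unadjusted p below 0.05 there were 0 members, against 567 of 15004 genes. The median over members was -0.48 without both CKD libraries 3, with 83 of 87 negative and 0 called, and -0.43 without sham saline library 1. Complex medians were -0.53 for I, -0.57 for II, -0.54 for III, -0.49 for IV and -0.57 for V. The smallest p-values were those of Sdha (-0.69, SE 0.39), Uqcrb (-0.72, SE 0.41), Cox7b (-0.65), Atp5md (-0.66) and Ndufs6b, a close relative of the complex I subunit gene Ndufs6, at -0.83 (SE 0.40), all with an edgeR adjusted p of 0.840. The lower median of CKD JV001 against CKD saline is thus not shown to differ from that of JV001 in sham mice.

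The members moved together from library to library. The standard deviation of log2 CPM over the 12 libraries had a median of 0.475 over the members, but only 0.0901 when each library's own member median was subtracted, and 72 of 87 members were below 0.15 on that relative scale. The 7 above 0.3 were Cox4i2 (1.59), Ndufa4l2 (1.52), Cox7b2 (1.14), Ndufb4c (0.81), Cox6a1 (0.52), Cox6b2 (0.36) and Cox8a (0.34). Cox7b2, Ndufb4c and Cox6b2 were among the lowest members by level, while Cox6a1 and Cox8a are ubiquitous forms of subunits that also have a muscle form.

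Those muscle and ubiquitous pairs allowed a comparison inside each library that does not depend on its scaling, though it can depend on the mixture of cells. The ratio of the muscle form Cox6a2 to Cox6a1, in FPKM, was 17.2, 16.5 and 7.14 in CKD JV001, 23.0, 23.7 and 13.5 in CKD saline, 23.2, 22.2 and 22.0 in sham JV001 and 20.2, 30.7 and 20.1 in sham saline. The muscle form dominated in all 12 libraries, and the 3 CKD JV001 ratios lay below every sham JV001 ratio. On the log2 scale of CPM ratios the means were 3.95 ± 0.72 in CKD JV001, 4.58 ± 0.46 in CKD saline, 4.78 ± 0.04 in sham JV001 and 4.83 ± 0.35 in sham saline (SD, n = 3 each). The ratio of the muscle form Cox8b to Cox8a, in FPKM, was 5.48, 5.57 and 3.47 in CKD JV001, 6.32, 6.47 and 4.45 in CKD saline, 7.04, 6.59 and 7.79 in sham JV001 and 6.46, 8.0 and 7.96 in sham saline. It too was lower in every CKD JV001 library than in every sham JV001 library, and library 3 was the lowest in both CKD groups. For both pairs the lowest ratio of each CKD group fell in library 3, which had that group's highest fibroblast marker sum. In each sham group the lowest Cox8b/Cox8a ratio fell in the library with the highest fibroblast sum. The lowest Cox6a2/Cox6a1 ratio fell in the sham library with the lowest sum. The part of cell mixture in these ratios was not tested.

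The exact permutation test of 3 against 3 libraries cannot go below p = 0.1, two-sided. It gave that p in CKD JV001 against sham JV001 for Cox6a2/Cox6a1 (log2 difference -0.83), Cox8b/Cox8a (-0.59), Cox4i2/Cox4i1 (2.08) and Ndufa4l2/Ndufa4 (2.17), with a Benjamini-Hochberg value of 0.4 over the 20 tests. Without CKD JV001 library 3 the log2 differences were -0.42 for Cox6a2/Cox6a1, -0.37 for Cox8b/Cox8a, 1.24 for Cox4i2/Cox4i1 and 1.42 for Ndufa4l2/Ndufa4, each more than 1.5 times smaller. Cox7a1/Cox7a2, the remaining muscle and liver pair, had nearly level log2 CPM ratios of 0.69 ± 0.08 in CKD JV001, 0.78 ± 0.10 in CKD saline, 0.73 ± 0.14 in sham JV001 and 0.89 ± 0.03 in sham saline (SD, n = 3 each). Its log2 difference was -0.03 for CKD JV001 against sham JV001 (exact permutation p = 0.9) and -0.11 for CKD saline against sham saline (exact permutation p = 0.1, Benjamini-Hochberg 0.4).

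**Figure D3:**
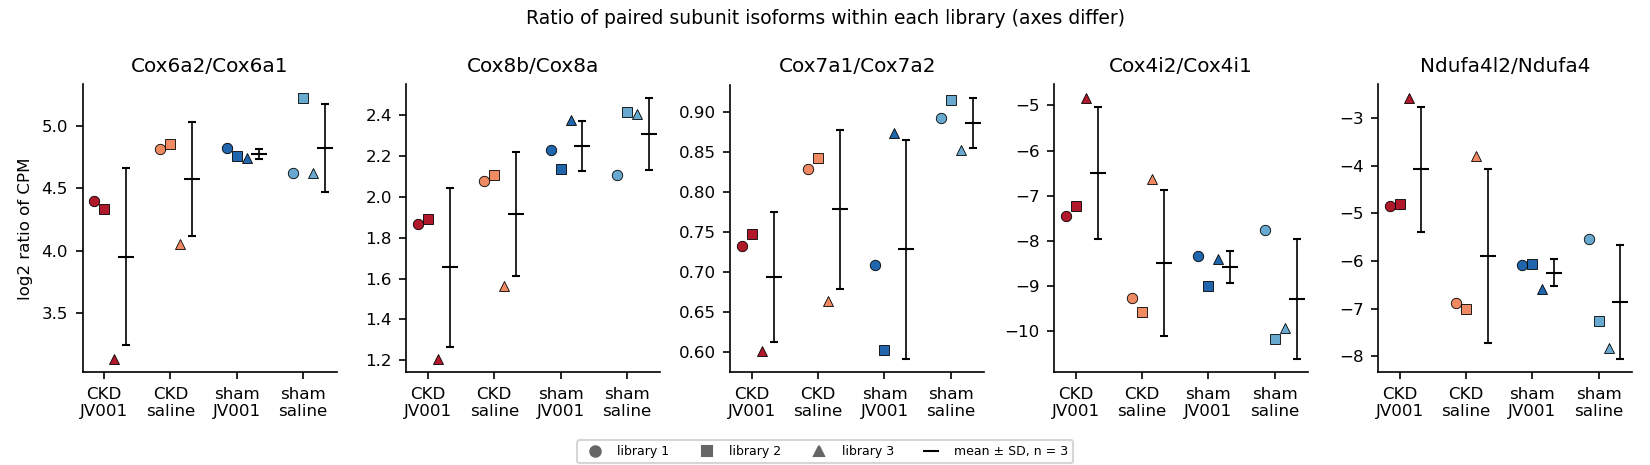
Log2 ratio of CPM for 5 isoform pairs in each library (points, with libraries 1, 2 and 3 as circles, squares and triangles) and the group mean ± SD (lines, n = 3), on axes that differ between pairs, with groups from left to right CKD JV001, CKD saline, sham JV001 and sham saline. Cox6a2/Cox6a1 and Cox8b/Cox8a are lower, and Cox4i2/Cox4i1 and Ndufa4l2/Ndufa4 higher, in all 3 CKD JV001 libraries than in all 3 sham JV001 libraries, while Cox7a1/Cox7a2 overlaps.

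The promoters of the members are described as sequence background. Their part in how the members moved from library to library was not tested. RefSeq promoters (build GRCm38.p6, 250 bases before to 50 after the start) were found for 70 of the 87 members, 75 promoters in all, and were searched on both strands for short motifs of factors known to act on nuclear genes of the respiratory chain. GCATGCGC, the core of the NRF1 site, was in 13.3% of member promoters, against 2.71% of the 32851 promoters of that length. CCGGAAG, the ETS-type core of GABP (also called NRF2), was in 22.7%, against 8.86% of all. AAGGTCA, the core of the oestrogen-related receptors, was in 10.7%, against 4.72%, and AAGATGG, a YY1 core, in 14.7%, against 6.34%. TATAAA was in 12% of member promoters and 13.6% of all. Member promoters had a median GC content of 57.3%, against 52.7% for all, and the part of GC content in these shares was not tested. These are matches of letters and not measured sites.
The 200 bases before the start are printed for the pair Cox8b and Cox8a and for Cox6a1, whose isoform ratios are described above, and for Atp5k and Atp5g3 as examples of members that moved with the rest. Motif letters are in capitals: NRF1 (2 overlapping matches, 1 on each strand) in Cox6a1 and Atp5k, GABP on the opposite strand in Cox6a1, and the receptor core on the opposite strand in Atp5g3. All 5 genes lie on the minus strand, at chr5:115348959-115349158 for Cox6a1, chr19:7217617-7217816 for Cox8a, chr7:140900447-140900646 for Cox8b, chr5:108434400-108434599 for Atp5k and chr2:73911327-73911526 for Atp5g3.
Cox6a1: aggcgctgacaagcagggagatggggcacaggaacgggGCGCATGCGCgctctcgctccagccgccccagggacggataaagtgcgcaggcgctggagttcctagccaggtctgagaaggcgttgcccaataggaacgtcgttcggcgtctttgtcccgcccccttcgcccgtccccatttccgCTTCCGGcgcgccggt
Cox8a: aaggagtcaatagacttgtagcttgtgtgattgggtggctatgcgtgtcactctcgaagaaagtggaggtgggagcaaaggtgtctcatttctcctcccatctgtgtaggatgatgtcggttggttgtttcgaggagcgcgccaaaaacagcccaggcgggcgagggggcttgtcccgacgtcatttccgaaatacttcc
Cox8b: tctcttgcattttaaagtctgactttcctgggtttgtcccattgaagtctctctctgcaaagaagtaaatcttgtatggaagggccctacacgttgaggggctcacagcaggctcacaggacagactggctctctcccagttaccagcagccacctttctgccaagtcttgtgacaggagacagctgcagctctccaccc
Atp5k: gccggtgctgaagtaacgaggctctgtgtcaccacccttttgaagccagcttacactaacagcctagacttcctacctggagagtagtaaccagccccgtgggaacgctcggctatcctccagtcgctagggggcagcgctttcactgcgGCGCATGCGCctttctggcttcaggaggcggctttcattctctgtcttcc
Atp5g3: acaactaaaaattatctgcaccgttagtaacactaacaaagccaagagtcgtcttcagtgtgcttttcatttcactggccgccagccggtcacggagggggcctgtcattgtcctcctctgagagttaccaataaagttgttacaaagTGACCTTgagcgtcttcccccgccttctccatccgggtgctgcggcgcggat
The GABP match of Cox8a, the TATAAA match of Cox8b and a GABP and a receptor match of Atp5k lie in the searched window but outside these 200 bases.

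As a share of the members' summed FPKM, the complexes kept nearly fixed proportions. Complex I held 28.0 to 29.1% and complex III 10.4 to 10.9% in all 12 libraries. Complex II held 3.82, 3.94 and 3.94% in CKD JV001, 4.11, 4.14 and 3.95% in CKD saline, 4.37, 4.28 and 4.21% in sham JV001 and 4.28, 4.46 and 4.38% in sham saline, so its share was lower in every CKD library than in every sham library and lower in every CKD JV001 library than in every CKD saline library. Complex IV held 27.4, 27.3 and 27.5% in CKD JV001, 26.6, 26.8 and 26.9% in CKD saline, 26.0, 26.3 and 26.3% in sham JV001 and 27.0, 26.2 and 25.6% in sham saline. Its share was higher in every CKD JV001 library than in any other library. Complex V was at 29.1, 29.1 and 29.4% in CKD JV001, 29.8, 29.8 and 29.5% in CKD saline, 30.9, 30.7 and 30.2% in sham JV001 and 30.2, 30.4 and 30.8% in sham saline, the lowest in CKD JV001. Library 3 of CKD saline was the nearest of its group to CKD JV001 in the shares of complexes II and V.

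**Figure D4:**
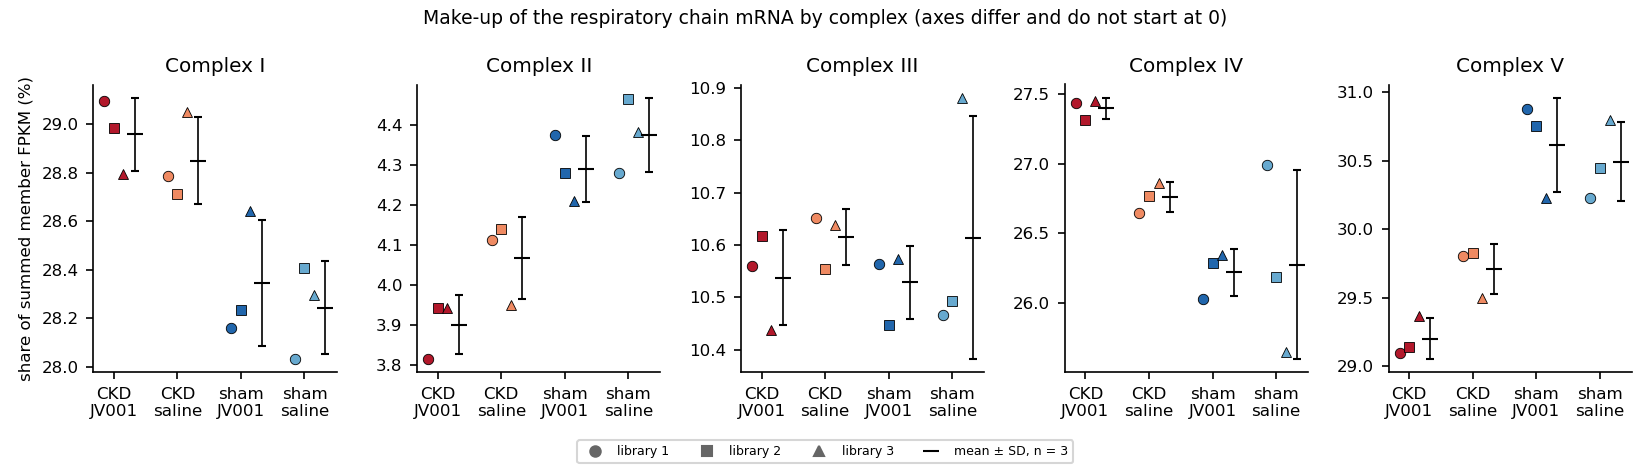
Share of each complex in the members' summed FPKM, in percent, for each library (points) with the group mean ± SD (lines, n = 3), on axes that do not start at 0, in the order CKD JV001, CKD saline, sham JV001, sham saline. The share of complex II is at 3.82 to 3.94% in CKD JV001, below the 3.95 to 4.14% of CKD saline and the 4.21 to 4.46% of the sham libraries.

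Set against the sum of the ventricular markers, which are contractile and calcium-handling genes of the cardiomyocyte, the members stood higher in CKD JV001, though not against each marker. The members' summed CPM per summed CPM of the 12 ventricular markers was 0.529, 0.508 and 0.537 in CKD JV001, 0.477, 0.474 and 0.485 in CKD saline, 0.434, 0.452 and 0.449 in sham JV001 and 0.461, 0.424 and 0.412 in sham saline. The ratio was higher in every CKD JV001 library than in every CKD saline library, and higher in every CKD library than in every sham library. In each group the highest ratio fell in the library with the highest fibroblast marker sum, and the part of other cell types in this ratio was not tested. When all libraries were scaled to the ventricular markers, an alternative chosen after the data were seen, the median log2 fold change of members was 0.19 for CKD JV001 against CKD saline and 0.32 for CKD JV001 against sham JV001. The direction of the members as a family thus flips with this scaling, which moved the median of all genes to 0.84 and 1.08. Relative to all genes the members stood at -0.66 and -0.76 on the ventricular scale and at -0.60 and -0.59 on the main scale. On the ventricular scale 0 members passed in CKD JV001 against CKD saline, and 44 rose in CKD JV001 against sham JV001 by edgeR at an adjusted p below 0.05, against 43.8% of all genes.

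The sum of ventricular markers is carried by a few genes, so each marker was also used alone. Members per marker, as a ratio of group means, was above 1 for 12 of 12 markers in CKD JV001 over CKD saline, from 1.02 for Tnni3 to 1.21 for Ttn, and groups did not overlap for 4. For CKD JV001 over sham JV001 it was above 1 for 10 of 12 markers, without overlap for 5, which were Ttn (1.61), Ryr2 (1.51), Myh6 (1.31), Atp2a2 (1.28) and Tnnt2 (1.13). Tnnc1 (0.944), Tnni3 (0.987) and Actc1 (1.00) lay at or below level. For CKD saline over sham saline 6 of 12 were above 1, with 4 higher and 1 lower without overlap. The markers with the highest ratios have long transcripts (117640 bases for Ttn and 16957 for Ryr2, against 721 for Tnnc1, by the lengths behind the deposited FPKM), and the part of transcript length in these ratios was not tested.

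**Figure D5:**
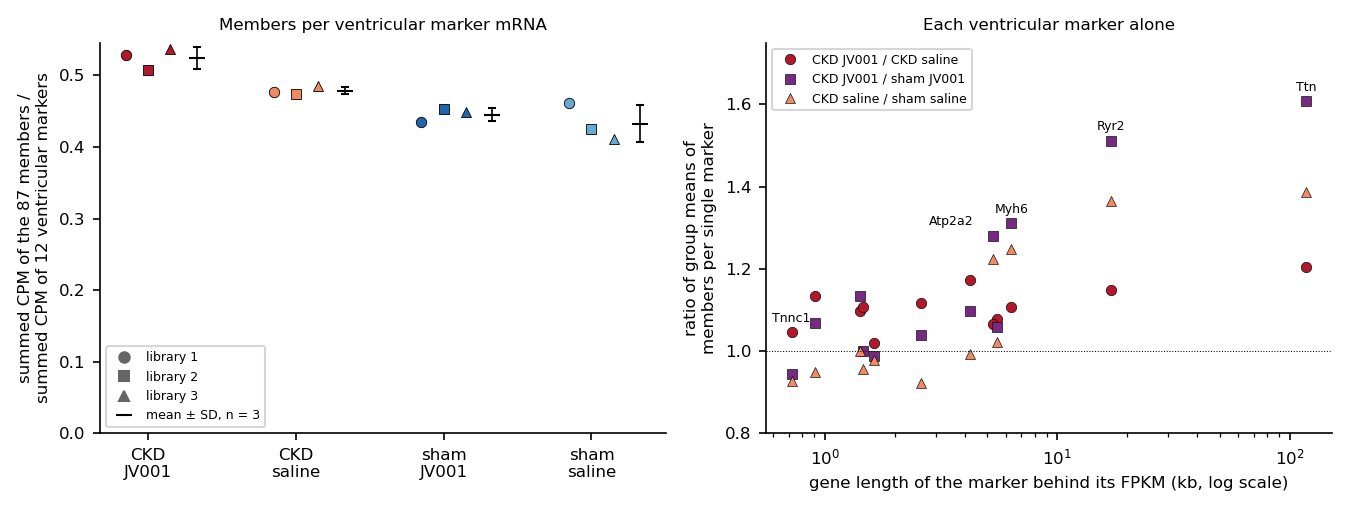
Left, summed CPM of the 87 members divided by summed CPM of the 12 ventricular markers in each library (points) with the group mean ± SD (lines, n = 3); right, the ratio of group means of members per single marker for 3 comparisons, against the marker's gene length in kilobases on a log axis, with a dotted line at 1. On the left every CKD JV001 library lies above every other library; on the right Ttn and Ryr2 stand highest at 1.61 and 1.51 for CKD JV001 over sham JV001, and Tnnc1 lowest of that comparison at 0.944.

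Length also varied with the fold changes among the members themselves. Their median length was 750 bases, and in CKD JV001 against CKD saline the 44 shorter members had a median log2 fold change of -0.52 and the 43 longer ones -0.62. In CKD JV001 against sham JV001 the medians were -0.53 and -0.64. Across the 87 genes, which are not independent replicates, Spearman's rho between length and log2 fold change was -0.53 and -0.31.

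The other genes of the pathway were read from lists chosen with earlier results known. Of 50 assembly factors 48 were found, and their median log2 fold change was -0.50 in CKD JV001 against CKD saline, with 48 of 48 negative, and -0.47 in CKD JV001 against sham JV001, with 47 of 48 negative; 0 passed edgeR's test in either. Without both CKD libraries 3 the medians were -0.47 and -0.26, with 18 and 1 that fell, against 10.1% and 5.6% of all genes. In the 6 CKD libraries with the block 24 fell against CKD saline, where 9.56% of all genes fell. The smallest p in the first belonged to Ndufaf7, an assembly factor of complex I (-0.72, SE 0.23, edgeR adjusted p = 0.276), with 18.7, 21.6 and 12.5 CPM in CKD JV001 and 30.9, 32.9 and 23.1 CPM in CKD saline, which did not overlap. In the second it belonged to Cox15, which makes haem A for complex IV (-0.75, SE 0.22, edgeR adjusted p = 0.105), with 23.5, 29.3 and 17.5 CPM in CKD JV001 and 40.2, 36.8 and 41.1 CPM in sham JV001.

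Electron carriers and partners of the chain, 21 genes, had medians of -0.65 and -0.59 in these comparisons, with 21 of 21 negative in each and 0 that passed. They were -0.57 and -0.31 without both CKD libraries 3, with 17 and 2 that fell, and 17 fell with the block. Of all genes, 10.1% and 5.6% fell without those libraries and 9.56% with the block. Cycs, the cytochrome c that carries electrons to complex IV, had 287, 275 and 130.0 CPM in CKD JV001, 434, 417 and 242 CPM in CKD saline and 334, 362 and 404 CPM in sham JV001. Cyc1, the cytochrome of complex III, and Ndufab1, the acyl carrier subunit of complex I, had log2 fold changes of -0.65 and -0.65 for CKD JV001 against CKD saline and of -0.57 and -0.62 for CKD JV001 against sham JV001, close to the members' medians. The 14 citric acid cycle genes had lower medians of -0.72 and -0.81, with 0 passing in each. At an unadjusted p below 0.05, 13 of 14 were lower in each, against 8.75% and 12.7% of all genes. The medians of the cycle genes were -0.71 and -0.54 without both CKD libraries 3. Then 14 and 11 fell, and 14 fell with the block, against the same shares of all genes as for the carriers. Cs, citrate synthase, had 774, 756 and 401 CPM in CKD JV001, 1307, 1319.95 and 748 CPM in CKD saline and 1361, 1270.1 and 1366 CPM in sham JV001 (log2 fold change -1.05, SE 0.29, edgeR adjusted p = 0.0963 against sham JV001). Members per citric acid cycle gene, as summed CPM, was 3.74, 3.66 and 3.59 in CKD JV001, 3.37, 3.37 and 3.55 in CKD saline, 3.07, 3.31 and 3.33 in sham JV001 and 3.27, 3.04 and 3.12 in sham saline, higher in every CKD library than in every sham library.

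The 13 subunit genes of the mitochondrial genome did not follow their nuclear partners. Their median log2 fold change was -0.07 in CKD JV001 against CKD saline with 8 of 13 negative, 0.31 in CKD JV001 against sham JV001 with 12 of 13 positive, and 0.57 in CKD saline against sham saline with 13 of 13 positive; 0 passed edgeR's test in each. Without both CKD libraries 3 the medians were -0.03, 0.25 and 0.58, with 0 that passed. With the block 1 of the 13 rose in CKD JV001 against CKD saline, where 10.4% of all genes rose. Summed CPM of these 13 genes per summed CPM of the 87 nuclear members was 9.75, 8.05 and 21.8 in CKD JV001, 6.20, 6.73 and 13.2 in CKD saline, 7.04, 5.90 and 5.43 in sham JV001 and 9.06, 3.64 and 3.90 in sham saline. The ratio was highest in library 3 of each CKD group and next in CKD JV001 library 1, and sham saline library 1 lay among the CKD libraries. Mitochondrial transcripts carry short poly(A) tails and have nuclear copies, so their counts also depend on RNA selection and read assignment, whose part was not tested.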

How the data were processed

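Polyadenylated RNA of 12 libraries (4 groups of 3) was prepared from 1.3 ug of total RNA with a VAHTS Universal V6 kit, per the labels' protocols. The deposited table holds raw read counts per gene symbol, not normalised by the authors, and the authors' deposited FPKM values follow from them: 1 whole-number length per gene gave the FPKM, at a tolerance of 0.01, in 100% of the 10249 genes that had 50 or more reads in every library. Per the submitters' processing notes, fastp, HISAT2, HTSeq and GRCm39 were used; the sources used here give no version, annotation, counting mode or strand setting, so overlapping genes and near copies (Ndufb4 with Ndufb4b and Ndufb4c, Ndufs6 with Ndufs6b) are uncertain. Library totals were 25.2 to 37 in units of 1e6 counts.

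The test was edgeR 4.0.16 (R 4.3.3) on the counts: TMM factors, filterByExpr by group (minimum count 10), 1 quasi-likelihood fit of 4 group means over 12 libraries, Benjamini-Hochberg adjustment over 15004 genes and a threshold of 0.05. CPM used TMM-scaled totals, and log2 CPM a prior count of 2. SE stands for a standard error derived from the test: the absolute log2 fold change divided by the square root of the quasi-likelihood F statistic. DESeq2 1.42.0 and limma 3.58.1 on log2 FPKM (pseudocount 1 or 0.1, mean FPKM of 0.5 or more) were alternatives, with RLE factors, totals only, no filter, a stricter one (at least 3 libraries at 1 CPM, mean count 10), only the groups compared, a replicate block, mitochondrial genes left out and each library left out. Scaling to ventricular markers, each marker alone, the division by gene length and the block within the CKD groups were added after seeing the data. Leaving out both CKD libraries 3 was planned from earlier results of these same data, in which they stood apart. Isoform ratios were tested by exact permutation. The scripts were tested on simulated data.

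The members, lists and settings were chosen with earlier results of these data known. Named by rule were the 2 highest members of each complex by FPKM, the smallest p of each complex and the highest and lowest fold change in each comparison, the 4 Sdh genes, the isoform pairs, Cycs, Cyc1, Ndufab1 and the smallest p of up to 3 lists; other genes were named after their values were seen. Replicate numbers come from the labels, which tie them to no animal, batch or day; all 3 same-number correlations were over 0.1 only between the CKD groups (0.29 to 0.49), and only their 6 libraries were also fitted with the number as a block. Promoter coordinates are of GRCm38.p6; no coordinates of GRCm39 are given.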

Additional observations from a re-analysis of the deposited data

Results flagged for a closer look

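Ndufs6b, a close relative of the complex I gene Ndufs6, had JV001 effects of opposite sign in CKD and sham mice. It stood at 7.38, 6.13 and 3.76 CPM in CKD JV001, 9.85, 10.4 and 5.52 CPM in CKD saline, 7.42, 8.22 and 8.91 CPM in sham JV001 and 7.10, 7.45 and 6.11 CPM in sham saline. The difference of mean log2 CPM was -0.57 between CKD JV001 and CKD saline and 0.25 between sham JV001 and sham saline, and each JV001 library lay on that side of its own saline mean. That pattern itself was not tested; edgeR's interaction gave -0.83 (SE 0.40, adjusted p = 0.840). The counts are low, and reads shared with Ndufs6 cannot be separated here.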

How the results depend on the processing

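The members' median log2 fold change of CKD JV001, against either CKD saline or sham JV001, and of the interaction stayed below 0 in all alternatives that kept a scale over all genes. Only scaling to the ventricular markers turned it, to 0.19, 0.32 and 0.13. With each library left out in turn it ranged from -0.81 to -0.28 for CKD JV001 against CKD saline, -0.74 to -0.27 for CKD JV001 against sham JV001, -0.17 to 0.18 for CKD saline against sham saline, -0.14 to 0.01 for sham JV001 against sham saline and -0.77 to -0.23 for the interaction. Counts of called members rested on library 3 of the CKD groups. Without both, 70 members were called for CKD JV001 against CKD saline and 13 for CKD JV001 against sham JV001, and with each library left out the counts were 0 to 29 and 0 to 2, the higher value in each without CKD saline library 3. For CKD JV001 against sham JV001, DESeq2 called 2 members and ventricular scaling 44.

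Genes called in CKD JV001 against sham JV001 were 3 in the edgeR fit, 7 with RLE factors, 1 with totals only, 5 without a filter, 12 with the stricter filter, 1768 by DESeq2, 792 with only the groups compared, 7 without mitochondrial genes, 74 and 10 by limma with a pseudocount of 1 and 0.1, 16 by limma without a filter, 6599 on the ventricular scale, 1433 without both libraries 3, and 0 to 1612 with each library left out. In CKD JV001 against CKD saline (0 by edgeR) they were 45 by DESeq2, 6 by limma without a filter, 3043 without both libraries 3 and 0 to 3287 with each left out, the highest without CKD saline library 3. CKD saline against sham saline gave 47 by DESeq2 and 1 by limma without a filter, and sham JV001 against sham saline 2 and 3.

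Of 18 same-number pairs, 6 had a correlation over 0.1, including all 3 between the CKD groups, where 4 of 6 libraries correlated best with their own number. By the labels, same-number libraries share only a number in every comparison, also between the CKD groups. A replicate block over 12 libraries gave 0 genes in CKD JV001 against sham JV001 and changed no call of a member. Fitted alone with the block, a setting added after seeing the data, the 6 CKD libraries gave 2850 genes and 76 members, with 2 residual degrees of freedom.

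Small differences changed sign. Cox6a1 in CKD JV001 against CKD saline was 0.17 with totals only and by limma in 3 settings, 0.00898 without a filter, 0.024 with the stricter filter, 0.00399 with only the groups compared, 0.00727 with the block as well and -0.086 to 0.048 with each library left out. Cox8a in CKD JV001 against sham JV001 was 0.00854 with totals only, 0.088 without both libraries 3 and -0.18 to 0.10 with each left out. In CKD saline against sham saline, leaving out both libraries 3 gave 0.10 for Atp5a1 (each left out -0.29 to 0.10), -0.14 for Ndufa4l2 (-0.15 to 1.87), 0.081 for Uqcrc2 (-0.31 to 0.080), -0.14 for the log2 ratio Cox4i2/Cox4i1 (-0.14 to 1.56), 0.012 for Cox6a2/Cox6a1 (-0.39 to 0.012) and -0.076 for Ndufa4l2/Ndufa4 (-0.076 to 1.65). Cox7a1/Cox7a2 in CKD JV001 against sham JV001 became 0.012 (-0.10 to 0.039). With each library left out, the sham JV001 difference from sham saline ranged over -1.05 to 0.56 for Ndufb4c and -0.15 to 0.16 for Cox6a2/Cox6a1, and Cox4i2 from -0.22 to 1.90 in the interaction. The causes were not tested. Counts under 20 in every library limit Cox7b2, and limma's FPKM minimum left out the lowest members.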
